A study of Homo sapiens with 4 samples.

Results

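The MAPK feedback genes described here are 10 genes, DUSP1, DUSP4, DUSP5, DUSP6, DUSP7, SPRY2, SPRY4, SPRED1, SPRED2 and ETV5. They were taken by gene name from a count table of 60544 genes, and each name matched 1 row. The table holds poly(A) RNA counts from PC3, an established cell line from a human prostate cancer, grown in RPMI-1640 with serum. The control arm, labelled shNC, and the arm labelled sh812 had 2 libraries each. The series names METTL3 knockdown against control, and sh812 was read as the knockdown because it is the only other label. METTL3 is the methyltransferase that methylates adenosines of messenger RNA to N6-methyladenosine (m6A). Each arm has 1 hairpin label, and the labels do not say whether the libraries of an arm came from separate cultures, so the p-values measure only the spread between these libraries.

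Growth factor receptors signal through RAS, RAF, MEK and ERK, and active ERK induces genes that damp the same cascade. The dual-specificity phosphatases (DUSPs) remove phosphate from MAP kinases, with DUSP1, DUSP4 and DUSP5 acting in the nucleus and DUSP6 and DUSP7 in the cytoplasm. Sprouty (SPRY) and SPRED proteins act further upstream, at the level of receptors, RAS and RAF, and ETV5 is an ETS transcription factor whose gene is an output of ERK signalling. In tumour cells, the transcripts of this group are often read as a measure of ERK pathway output.

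Total counts ran from 31450648 to 37041330 per library. METTL3 had 44.3 and 43.6 CPM (counts divided by library size after TMM scaling) in shNC replicates 1 and 2 and 7.66 and 8.75 CPM in the sh812 replicates, which is -2.42 on the log2 scale (SE 0.11, adjusted p = 5.54e-14, edgeR). The keratins KRT8 and KRT18, EPCAM and VIM, which PC3 cells express, lay between 69.3 and 641 CPM, and each separated the groups. EPCAM had 69.3 and 77.0 CPM in shNC and 98.5 and 101 CPM in sh812. KRT18 had 139 and 169 against 186 and 194 CPM, KRT8 had 222 and 242 against 252 and 254 CPM, and VIM, the only one that was lower in sh812, had 579 and 641 against 529 and 549 CPM. KLK3 was listed at 0 in each library. Of 7 markers of blood, endothelial and fibroblast cells, CD3E and HBB were at 0 in each library. The summed level of the 7 was 62.9 and 64.9 CPM in shNC and 63.1 and 74.9 CPM in sh812, and the groups overlapped in this sum. Most of it came from PECAM1, with 23.8 and 23.7 CPM in shNC and 32.9 and 38.5 CPM in sh812, and COL1A1, with 37.6 and 39.4 against 29.3 and 34.5 CPM. These 2 moved in opposite directions, and the groups did not overlap in either. The part of these marker differences in the results was not tested.

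Across the 10 genes the response was mixed. SPRY4 and ETV5 were lower in sh812, DUSP6 was higher, and the other 7 genes did not pass an adjusted p of 0.05. In bulk RNA, a change in the RNA of each cell and a change in the share of cells that hold it cannot be told apart. The 3 calls among 10 stand beside 10.8% of all 16802 genes tested, and beside 19.1% of the 6495 genes at least as abundant as DUSP1, the least abundant of the 10 in CPM. In 1 direction at a time, 1 of the 10 was called higher against 5.43% of all genes and 2 were called lower against 5.42%. Shares by direction, here and for the lists below, are over all genes and were not computed for genes at least as abundant as DUSP1. The median log2 fold change was -0.071 over the 10 genes and -0.0056 over all genes tested, with 4 of the 10 positive and 6 negative.

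Short sequences of the 3 called genes and of DUSP1 are shown to place the values on the transcripts and promoters. GGACT is a common form of the sequence at which the METTL3 complex methylates adenosine. For each called gene, the GGACT nearest to the end of the coding sequence of the longest coding transcript in GENCODE 29 (GRCh38) is printed in capitals within 29 bases. For DUSP1, a promoter stretch from RefSeq (GRCh38.p14) is printed, from base -135 to base -16 before the start, with a cyclic AMP response element (TGACGTCA) and a TATA sequence (TATAAA) in capitals.
SPRY4, chr5:142312766-142312794, minus strand, 3′ UTR: caaggtgctaaaGGACTcagaaggtgcag
ETV5, chr3:186048261-186048289, minus strand, 3′ UTR: tgcatcgatcatGGACTactaaatgcctt
DUSP6, chr12:89349259-89349287, minus strand, coding sequence: tgtataccaggtGGACTctctgcaatcta
DUSP1 promoter, chr5:172771211-172771330, minus strand: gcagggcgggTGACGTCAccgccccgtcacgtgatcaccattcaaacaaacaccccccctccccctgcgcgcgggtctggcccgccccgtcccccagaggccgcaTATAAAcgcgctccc

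The GGACT matches were placed differently in the 3 called genes. SPRY4 and ETV5 each had 4 matches in the transcript and 0 in the coding sequence, and their printed sites lay 1429 and 364 bases from its last base. DUSP6 had 6 matches, 4 of them in the coding sequence, and its printed site lay 19 bases from the last base of the stop codon. Methylation was not analysed here, and a match is a description of the letters only.

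Among the nuclear phosphatases, none of the 3 genes passed the threshold. DUSP4, which acts on ERK and JNK, lies on chromosome 8 from 29333064 to 29350668. It had 522 and 514 CPM in shNC replicates 1 and 2 and 532 and 555 CPM in the sh812 replicates. Both sh812 values were above both control values, by little. Its log2 fold change was 0.071 (SE 0.056, adjusted p = 0.48, edgeR), with a 95% interval from -0.045 to 0.19. It was 0.038 without sh812 replicate 2, 0.026 with library size alone and 0.14 with the length trend described below removed, and it passed in none of the 13 alternatives, where the adjusted p ran from 0.0879 to 0.893 (edgeR, DESeq2 or limma-voom).

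DUSP5, a nuclear phosphatase selective for ERK, lies on chromosome 10 from 110497838 to 110511544. It had 130.0 and 143 CPM in shNC and 116 and 124 CPM in sh812. The groups did not overlap, and the replicates of each group differed by 0.13 and 0.10 on the log2 scale. The log2 fold change was -0.19 (95% interval -0.32 to -0.050), and the adjusted p was 0.0706 in edgeR. It passed in 4 of 13 alternatives, with -0.25 (adjusted p = 0.0011, edgeR) without shNC replicate 1 and -0.11 (adjusted p = 0.217, edgeR) without shNC replicate 2. Over these 13 the adjusted p ran from 0.0011 to 0.576.

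DUSP1, a broad phosphatase of p38, JNK and ERK and an early response gene, lies on chromosome 5 from 172768090 to 172771195. It had 29.0 and 30.6 CPM in shNC and 26.9 and 29.8 CPM in sh812. It was the only one of the 10 whose groups overlapped. The log2 fold change was -0.071 (95% interval -0.26 to 0.12, adjusted p = 0.709, edgeR), and it was 0.0035 without sh812 replicate 1.

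**Figure D1:**
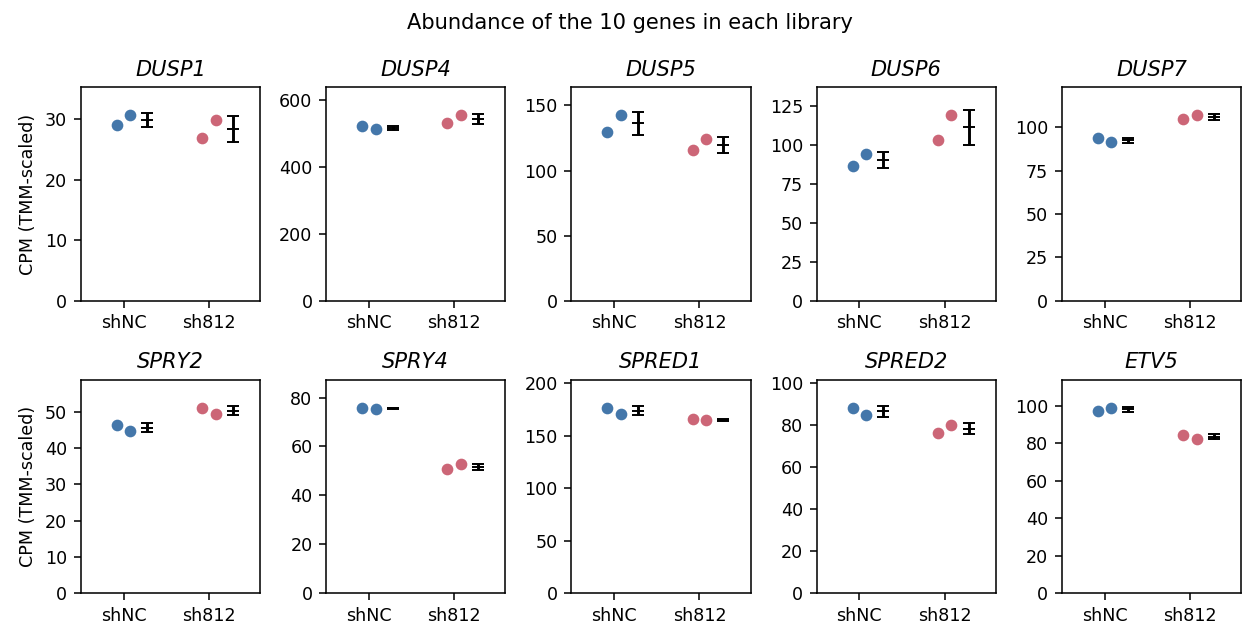
TMM-scaled CPM (linear axes from 0) of the 10 genes in the 2 shNC (blue) and 2 sh812 (red) libraries, with the replicates of a group from left to right and a black mark for the mean ± SD (n = 2). SPRY4 falls from about 76 to about 52 CPM with little spread, and DUSP1 is the gene whose groups overlap.

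The cytoplasmic phosphatases were both above control in each sh812 library. DUSP6, the ERK-selective phosphatase best known as a readout of ERK activity, lies on chromosome 12 from 89347232 to 89353271. It had 86.8 and 94.1 CPM in shNC and 104 and 119 CPM in sh812, where replicate 2 was the higher. The means were 90.5 ± 5.15 and 111 ± 11.1 CPM (SD, n = 2), and sh812 stood at 123% of control. The log2 fold change was 0.30 (SE 0.072, 95% interval 0.15 to 0.45, adjusted p = 0.00837, edgeR). Without sh812 replicate 2 the call was lost, as it was for most called genes, and the log2 fold change was 0.19. It held in the other 12 alternatives, and over all 13 the adjusted p ran from 1.42e-06 to 0.328. An antisense gene, AC024909.2, shares 1875 bases of exon with DUSP6, and had 2 to 14 counts per library against 2976 to 4268 for DUSP6.

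DUSP7, a close relative of DUSP6 with the same preference for ERK, lies on chromosome 3 from 52048919 to 52056550. It had 93.6 and 91.5 CPM in shNC and 105 and 107 CPM in sh812. The replicates of each group differed by less than 0.04 on the log2 scale (-0.032 and 0.033), and the groups did not overlap. Its fitted log2 fold change was 0.19 (95% interval 0.059 to 0.33), and the adjusted p of 0.0567 in edgeR missed the threshold. It passed in 4 of 13 alternatives, among them the removal of either shNC library (adjusted p = 0.0241 and 0.0368, edgeR), and over the 13 the adjusted p ran from 0.0241 to 0.406.

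The 2 Sprouty genes differed from each other. SPRY4, an inhibitor of receptor signalling to RAS and RAF, lies on chromosome 5 from 142310427 to 142326455. It had 75.9 and 75.5 CPM in shNC and 50.9 and 52.6 CPM in sh812. The gap between the groups was far wider than the gap within either. The means were 75.7 ± 0.263 and 51.7 ± 1.27 CPM (SD, n = 2), so sh812 stood at 68.4% of control. On the log2 scale the change was -0.55 (SE 0.072, 95% interval -0.70 to -0.40, adjusted p = 1.44e-05, edgeR). It passed in all 13 alternatives, with log2 fold changes from -0.59 to -0.49 and adjusted p-values from 1.62e-10 to 0.000358.

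SPRY2, an inhibitor of the same family, lies on chromosome 13 from 80335976 to 80340951. It had 46.5 and 44.8 CPM in shNC and 51.2 and 49.5 CPM in sh812. Both sh812 values were above both controls, but the gene did not pass, at a log2 fold change of 0.14 (95% interval -0.019 to 0.30, adjusted p = 0.273, edgeR). The ratio of SPRY4 to SPRY2 counts, which does not depend on library scaling, was 1.63 and 1.68 in shNC and 0.994 and 1.06 in sh812. With 2 against 2 libraries an exact permutation test of such a ratio cannot give a two-sided p below 0.333.

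The SPRED genes, whose proteins bring the RAS inhibitor neurofibromin to the membrane, were close to control. SPRED1, on chromosome 15 from 38252326 to 38357249, had 177 and 170.5 CPM in shNC and 166 and 165 CPM in sh812, with a log2 fold change of -0.071 (95% interval -0.19 to 0.052, adjusted p = 0.513, edgeR). SPRED2, on chromosome 2 from 65310851 to 65432637, had 88.3 and 84.7 CPM in shNC and 76.4 and 80.2 CPM in sh812, with a log2 fold change of -0.14 (95% interval -0.28 to -0.0041, adjusted p = 0.187, edgeR). Both sh812 values lay below both controls in each gene, and neither gene passed in any of its 13 alternatives. With the length trend described below removed, the SPRED1 value was 0.017, and it was -0.045 without shNC replicate 1 and -0.12 with library size alone.

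ETV5, on chromosome 3 from 186046308 to 186110318, had 97.3 and 99.0 CPM in shNC and 84.6 and 82.5 CPM in sh812. A coding gene on the same strand, DGKG, shares 164 bases of exon with ETV5. DGKG had 68 and 55 counts in shNC and 43 and 26 in sh812, against 2954 to 3689 per library for ETV5. The groups of ETV5 were apart and each was narrow, at 98.1 ± 1.21 and 83.6 ± 1.44 CPM (SD, n = 2). The log2 fold change was -0.23 (SE 0.066, 95% interval -0.37 to -0.096, adjusted p = 0.0236, edgeR), which places sh812 at 85.2% of control. The call was lost without sh812 replicate 1 (-0.25, adjusted p = 0.2, edgeR) and without sh812 replicate 2 (-0.22, adjusted p = 0.268, edgeR), and over the 13 alternatives the adjusted p ran from 0.00657 to 0.268. ETV4, its close relative and also an ERK output gene, was higher, with a log2 fold change of 0.20 (adjusted p = 0.0351, edgeR). The ratio of ETV5 to ETV4 counts was 0.585 and 0.551 in shNC and 0.432 and 0.410 in sh812. The ETV4 call was lost in 5 of 13 alternatives, namely library size alone (0.16, adjusted p = 0.0894, edgeR), the removal of shNC replicate 1 (0.14, adjusted p = 0.0777, edgeR) or of either sh812 library (0.22 and 0.18) and the removal of the length trend (0.16), and its adjusted p over them ran from 6.07e-05 to 0.347.

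In 9 of the 10 genes both sh812 libraries lay on 1 side of both controls. The same held for 53.6% of all genes tested and for 64.4% of genes at least as abundant as DUSP1. The summed level of the 10 genes was 1346 and 1347 CPM in shNC and 1312 and 1365 CPM in sh812, and the groups overlapped. On the TPM scale, which divides counts by exon length as described below and is not TMM-scaled, the sum was 1022 and 1002 in shNC and 908 and 956 in sh812, and the groups did not overlap, so whether the sum separates the groups depends on the scale. Ratios between members within a library need no scaling between libraries. The ratio of DUSP6 to SPRY4 counts was 1.14 and 1.25 in shNC and 2.04 and 2.27 in sh812, and that of DUSP6 to DUSP5 was 0.668 and 0.660 in shNC and 0.896 and 0.962 in sh812. These pairs were chosen after the values were seen.

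**Figure D2:**
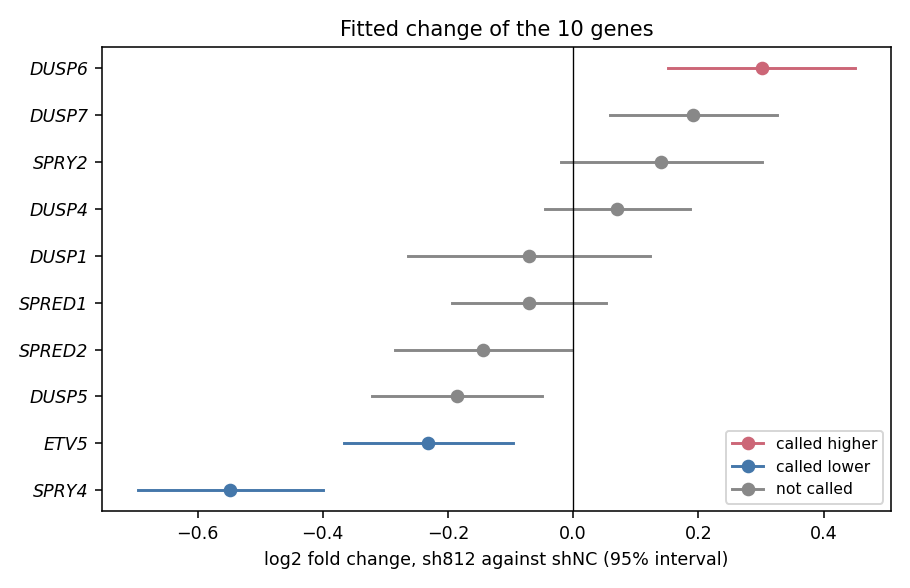
Fitted log2 fold change of sh812 against shNC for the 10 genes (points) with 95% intervals (lines), sorted by value and coloured by call at an adjusted p under 0.05. DUSP6 at 0.30 is the gene called higher, SPRY4 at -0.55 and ETV5 at -0.23 are called lower, and the intervals of DUSP5, DUSP7 and SPRED2 exclude 0 before adjustment only.

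Levels can be compared between genes only per length, and for this the counts were divided by the merged exon length in GENCODE 29 and scaled to TPM, so that every library has the same sum. DUSP4 was the most abundant of the 10 at 283 ± 10.2 TPM in shNC and 278 ± 9.32 TPM in sh812 (SD, n = 2). DUSP5 came next at 206 ± 8.42 and 170 ± 9.11 TPM. In shNC the other 8 genes lay between 45.7 TPM (SPRY4) and 83.2 TPM (SPRED1), and neighbours such as ETV5, SPRED2 and DUSP7 (67.0, 66.5 and 64.9 TPM) did not differ beyond their spread. SPRY4 was last in both groups, at 45.7 ± 1.28 TPM in shNC and 29.2 ± 0.82 TPM in sh812. In sh812, DUSP6 (89.1 ± 9.22 TPM) stood above SPRED1 (74.1 ± 0.182 TPM), whereas in shNC it stood below, at 77.3 ± 2.50 against 83.2 ± 4.11 TPM. TPM is not TMM-scaled and was used for the order of genes within a group and for the sum above only.

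The change between groups varied with transcript length over all genes. Across 12257 genes the Spearman correlation of the log2 difference with transcript length was -0.343 between groups, and -0.335 between the 2 shNC libraries, as replicate 2 against replicate 1. It was 0.0452 between the 2 sh812 libraries, so no such trend separated that pair. These values describe libraries that share the same genes. By the longest coding transcript, SPRED1 (7780 bases) was longer than 90.4% of the tested coding genes, DUSP4 (5537) than 77.3%, SPRY4 (4938) than 71.5%, DUSP6 (4400) than 64.9% and ETV5 (4111) than 60.3%. With each library's trend on length removed, an alternative chosen after seeing the data, SPRY4 was at -0.49 (adjusted p = 2.78e-05, edgeR), ETV5 at -0.20 (adjusted p = 0.0452, edgeR) and DUSP6 at 0.34 (adjusted p = 0.0021, edgeR). DUSP5 (-0.22, adjusted p = 0.0241, edgeR) and DUSP7 (0.20, adjusted p = 0.0369, edgeR) then passed as well.

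**Figure D3:**
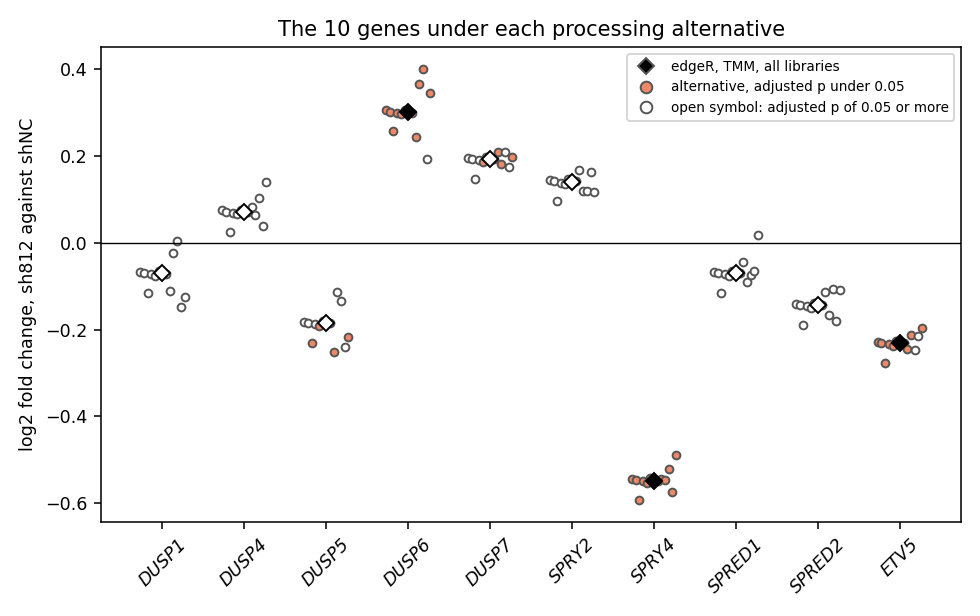
Log2 fold change of sh812 against shNC for each of the 10 genes in the fit with TMM and all libraries (diamonds) and in 13 alternatives (circles), filled where the adjusted p was under 0.05. SPRY4 is filled throughout, from -0.59 to -0.49, DUSP6 has 1 open circle at 0.19, and the circles of DUSP1 and SPRED1 touch both sides of 0.

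The rest of the pathway was read from 6 lists of 76 other genes, of which 75 were tested. EGR1, an early response factor, was not tested, with 2 to 12 counts per library. Of the 75 genes, 4 were called higher and 8 lower, which is 16.0% against 10.8% of all genes. Among genes at least as abundant as DUSP1 the share was 19.1%, though not all of the 75 are that abundant. The median log2 fold change of the 75 was -0.092. The number called ran from 6 without sh812 replicate 1 and 7 without sh812 replicate 2 to 22 without shNC replicate 2.

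In the RAS, RAF, MEK and ERK cascade, 2 of 20 genes were called, both lower. Of all genes, 10.8% were called and 5.42% were called lower. The median log2 fold change was -0.11 over the 20. The called genes were SHOC2 and MRAS, whose products join a phosphatase in a complex that activates RAF. SHOC2 had 46.8 and 41.6 CPM in shNC and 24.0 and 24.0 CPM in sh812, so that sh812 stood at 54.3% of control. Its log2 fold change was -0.88 (SE 0.091, adjusted p = 3.13e-07, edgeR), the lowest of all 75. MRAS had 17.2 and 20.1 CPM in shNC and 12.2 and 12.5 CPM in sh812, and its log2 fold change was -0.59 (SE 0.12, adjusted p = 0.00195, edgeR). Both passed in each of 13 alternatives. MAPK3, which encodes the kinase ERK1, was at -0.22 (adjusted p = 0.121, edgeR) on the log2 scale. BRAF, MAP2K1 and MAP2K2 had values of -0.18, -0.11 and 0.042, and were not called. These 4 kinase genes were chosen after their values were seen.

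Among other Sprouty, SPRED and RAS inhibitor genes, 3 of 12 were called, each of them lower, with a median of -0.13 over the 12. Of the 12 log2 fold changes, 5 were positive and 7 negative. The count of calls stands beside 10.8% of all genes called, and 5.42% called lower. RASA2 and DAB2IP encode RAS GTPase-activating proteins, and SPRED3 is the third SPRED gene. RASA2 had 17.2 and 13.6 CPM in shNC and 8.55 and 10.1 CPM in sh812, a log2 fold change of -0.73 (adjusted p = 0.00114, edgeR). SPRED3 had 18.1 and 19.7 CPM in shNC and 12.1 and 14.6 CPM in sh812, a log2 fold change of -0.50 (adjusted p = 0.00843, edgeR), and lost its call without sh812 replicate 1 (-0.37, adjusted p = 0.215, edgeR, the highest over its alternatives, with 0.000779 the lowest). DAB2IP was at -0.39 (adjusted p = 0.00461, edgeR) and lost its call without sh812 replicate 1 (adjusted p = 0.0673, edgeR) or 2 (adjusted p = 0.054, edgeR), over a range from 0.000628. NF1, the gene of neurofibromin, had a log2 fold change of 0.0061 (95% interval -0.14 to 0.16). SPRY1, a further Sprouty gene, was at 0.28 (adjusted p = 0.0775, edgeR) and was not called. NF1 and SPRY1 were named after their values were seen.

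Of the other MAPK phosphatases (DUSP2, DUSP8, DUSP9, DUSP10 and DUSP16), 0 of 5 were called in edgeR, beside 10.8% of all genes. The median was -0.18. DUSP9, at -0.28 (adjusted p = 0.123, edgeR), was the only 1 of the 5 with an unadjusted value under 0.05 in edgeR, and 0 were called in DESeq2.

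Other ERK output genes moved in both directions, with 2 of 14 called higher and 1 lower, beside 5.43% and 5.42% of all genes. The median was -0.037 over the 14. LIF, a cytokine gene, had 215 and 196 CPM in shNC and 126 and 132 CPM in sh812, and its log2 fold change was -0.67 (SE 0.063, adjusted p = 8.13e-08, edgeR). MYC, a growth-promoting transcription factor, had 167 and 167 CPM in shNC and 216 and 223 CPM in sh812, and its log2 fold change was 0.40 (SE 0.059, adjusted p = 7.7e-05, edgeR). ETV4 was the other gene called higher. PHLDA1, EPHA2 and FOSL1 had log2 fold changes of 0.083, -0.068 and 0.037 and were not called. They were chosen after their values were seen.

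Among ERK substrates and effectors, 1 of 12 was called higher and 2 lower, beside 5.43% and 5.42% of all genes. The median was -0.0064 over the 12. ELK3, an ETS factor that ERK phosphorylates, fell by 0.45 on the log2 scale (adjusted p = 0.000127, edgeR) and passed in each of 13 alternatives. RPS6KA5, which encodes the kinase MSK1, was at -0.30 (adjusted p = 0.0284, edgeR) and lost its call in 4 of 13 alternatives, with an adjusted p from 0.0155 to 0.296. These were DESeq2 (-0.29), the removal of sh812 replicate 1 (-0.26) or 2 (-0.33) and the removal of the length trend (-0.20). MKNK2, which encodes a kinase of the translation factor eIF4E, was at 0.24 (adjusted p = 0.0155, edgeR) and lost its call without sh812 replicate 1 (0.27) or 2 (0.21), with an adjusted p from 0.000391 to 0.262. In the JNK and p38 cascade, 1 of 12 genes was called, beside 10.8% of all genes, with a median of -0.022 over the 12. It was MAPKAPK3, the gene of a kinase downstream of p38, higher at 0.25 (adjusted p = 0.00691, edgeR), and its call was lost without sh812 replicate 1 (0.24) or 2 (0.27), with an adjusted p from 1.26e-07 to 0.152.

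**Figure D4:**
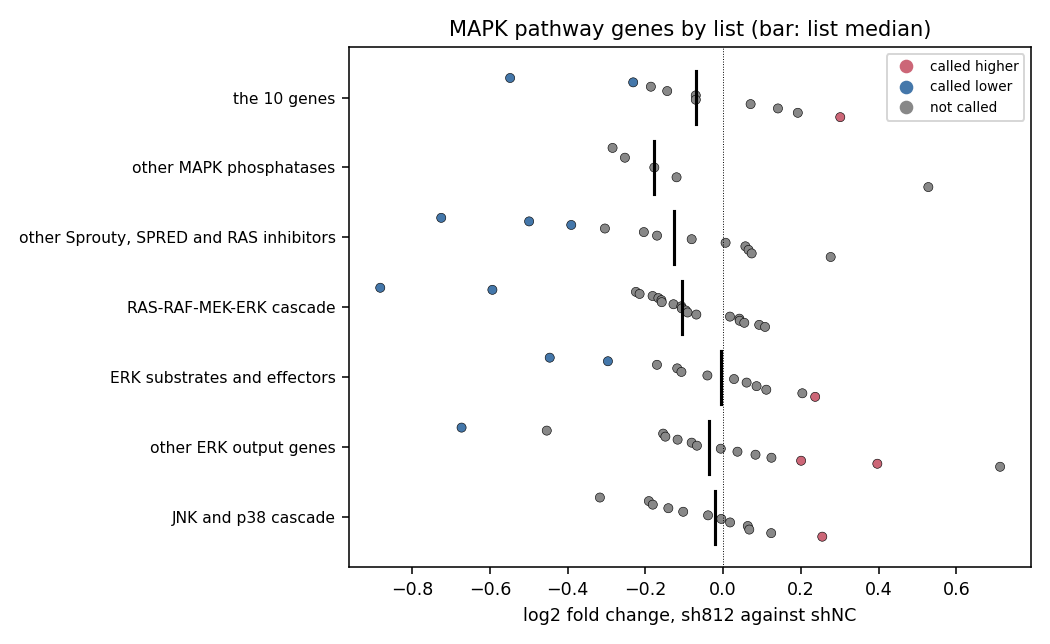
Log2 fold change of sh812 against shNC for the 10 genes and for the 75 tested genes of 6 MAPK pathway lists (points, spread vertically by rank within a list), coloured by call at an adjusted p under 0.05, with a black bar at each list's median. SHOC2 at -0.88 is the leftmost point, and each list has points on both sides of 0.

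The RefSeq promoter table held 10 promoters (250 bases before to 50 bases after a start) for 7 of the 10 genes, and DUSP4, DUSP5 and ETV5 were not matched. TGACGTCA was found on both strands of the DUSP1 promoter from base -125, being its own reverse complement, and in 1.85% of 35116 promoters. TATAAA was found in the DUSP1 promoter from base -30, in 1 of the SPRED2 promoters from base -31, and in 11.5% of all promoters. The AP-1 sequence TGANTCA, read the same on both strands, was found in that SPRED2 promoter from base -6 and from base 35, and in 7.71% of all promoters. The ETS sequence CCGGAAG (10.3% of promoters, either strand) and the CArG box (1.29%) were in none of the 10. No motif searched was found in the SPRY4 or DUSP6 window. The DUSP1 promoter had 73.3% GC and the SPRY4 and DUSP6 promoters 65.0% and 58.3%, against a median of 58.7% over all promoters.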

How the data were processed

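Poly(A) RNA of 4 PC3 libraries was sequenced as strand-marked paired reads, per the labels' protocols. The deposited values are raw counts per gene. The submitters' processing notes name fastp, STAR 2.7.1a, featureCounts and DESeq2 and the build hg38. The annotation release and strand setting are not given in the sources used here, so reads of overlapping genes may be shared. The main test was edgeR's quasi-likelihood test (edgeR 4.0.16, R 4.3.3) on all 4 libraries with TMM scaling, the filterByExpr filter and no covariate. Benjamini-Hochberg adjustment ran over the 16802 genes kept, with calls made where the adjusted p was under 0.05. All 10 members passed the filter. The fitted log2 fold change used a prior count of 0.125, and its SE came from the F statistic. The chi-square statistic per gene between replicates was 8.43 (shNC) and 4.51 (sh812), above sampling noise, so no pair was merged as 1 sample. This does not show that the cultures were separate. Named genes were METTL3, the members and, of each list, the called genes up to the 5 with the smallest p. Uncalled list genes named beside them (MAPK3, BRAF, MAP2K1, MAP2K2, NF1, SPRY1, DUSP9, PHLDA1, EPHA2, FOSL1) fall outside this rule. The untested EGR1 and the markers also fall outside it. The list genes among these were picked with their values known. Members and lists were chosen with earlier results of these data known. Alternatives were other scalings and filters, DESeq2 1.42.0, limma-voom (limma 3.58.1), the replicate number as a block, a prior count of 2, each library left out and the length trend removed (lowess, span 0.3). The 13 alternatives counted for a gene leave out the prior count. The test was checked on simulated counts, with changed genes drawn from all genes kept. It called 50 of 100 genes with a log2 change of 0.5 and 70 of 97 with a log2 change of 1. Far fewer genes were changed there than were called in the data, and they were of any abundance. These rates therefore do not give the power for the 10 genes. Of 127 calls, 7 were false. Positions are from GENCODE 29 (GRCh38). Some genes of the lists are not reported here by name.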

Additional observations from a re-analysis of the deposited data

How the results depend on the processing

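The removal of the length trend was added after seeing the data, and the other alternatives were planned. SPRY4 kept its direction and an adjusted p under 0.05 in all 13 that gave a test. With library size alone, DUSP5 passed (-0.23), 13 pathway genes were called lower against 8, and 561 of all genes were called higher against 912 (29.7% of calls higher against 50.1%). With a mean CPM of at least 1, DUSP5 (-0.19) and DUSP7 (0.19) passed, so 2 members were called higher against 1. With the length trend removed, DUSP5 (-0.22) and DUSP7 (0.20) passed, 2 members were called higher, and SPRED1 changed sign to 0.017. DESeq2 called 585 genes lower against 910. For each of these the cause was not tested.

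Leaving out a library leaves an arm with 1 sample, which is assumed to vary like the other arm. Most genes called with all libraries lost their call when sh812 replicate 1 was left out, and likewise for sh812 replicate 2. A call lost there is therefore common to most called genes. DUSP1 ran from -0.15 to 0.0035, positive without sh812 replicate 1, DUSP4 from 0.038 to 0.10, DUSP5 from -0.25 to -0.11, DUSP6 from 0.19 to 0.40, DUSP7 from 0.17 to 0.21 and ETV5 from -0.25 to -0.21. Called genes ran from 587 without sh812 replicate 1 to 3252 without shNC replicate 2 (261 to 1703 higher, 326 to 1549 lower), members called higher from 0 to 2 and lower from 1 to 3, and pathway genes called from 6 to 22 (1 to 7 higher, 5 to 15 lower).

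Replicate numbers 1 and 2 occur in both arms, and the labels do not say that a number pairs libraries. Deviations of same-numbered libraries had a correlation of 0.0238 across genes. With the replicate block, 2001 genes were called against 1822, SPRY4 was at -0.55, ETV5 at -0.23 and DUSP6 at 0.30, and no call of a member changed.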

Other observations

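The density of GGACT in the longest coding transcript differed among the 10 genes. DUSP4 (1.99 per kb), DUSP1 (1.98 per kb) and SPRY2 (1.85 per kb) stood above 91.6%, 91.5% and 89.2% of the 13237 tested genes with a coding transcript, whose median was 0.925 per kb. None of these 3 was called. The called genes DUSP6 (1.36 per kb), ETV5 (0.973 per kb) and SPRY4 (0.81 per kb) stood above 74.5%, 53.4% and 41.8%. DUSP5 (1.56 per kb), SPRED2 (1.46 per kb) and DUSP7 (1.2 per kb), which were not called, stood above 82.1%, 78.8% and 66.6%. Called and uncalled genes thus overlapped in density. SPRED1 had the lowest density, at 0.643 per kb, and was not called. These are counts of letters in reference transcripts, and this comparison was made after the values were seen.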
